A study of Danio rerio with 2 samples.

Results

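Fine clusters 4, 6 and 7 are groups of single cells from zebrafish (Danio rerio) tails that had been sorted by a fluorescent reporter of npas4l. They were taken as the cells that carry the authors' coarse Leiden cluster number 3 together with fine number 4, 6 or 7, which gave 1127 of the 10469 cells. Of these, 1020 came from the mutant library of 5262 cells and 107 from the heterozygous library of 5207 cells. The mutant embryos carried npas4l alleles bns423 and bns297, and the heterozygous embryos carried bns423 and a wild-type copy, so that bns423 was present in both groups. Cells were dissociated at 20 hours post fertilisation from pooled tails of about 150 embryos, a number that the labels do not split by genotype, and each genotype filled 1 droplet lane.

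The cloche locus of zebrafish encodes Npas4l, a transcription factor that mesoderm needs to form endothelial and blood cells. A reporter of its gene marks cells that have switched the gene on, whether or not its product works. RNA velocity compares unspliced with spliced transcripts of each gene to infer the direction in which a cell's transcriptome is moving. The velocity scores set against each other here are velocity pseudotime (the place of a cell in an ordering), the root cell and end point scores (how much a cell resembles a start or a finish of the inferred flow) and self-transition (the inferred tendency of a cell to stay in its own state).

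The data used here hold 1 row of summary values per cell and no values per gene, and no cluster number in them is tied to a named cell type. The clusters are therefore called by number and were not checked against marker genes. With 1 library per genotype there is no test between genotypes, and genotype, embryo pool, sort and lane cannot be told apart. The fine clusters were drawn from the expression of the same cells, so differences between them are descriptions. All intervals are exact two-sided 95% intervals that cover counting error over cells only. The share that a count of 0 allows is given as 3 counts over the cells examined, which at the sizes of fine clusters 4, 6 and 7 is somewhat below the upper end of the exact interval. Totals were 84294688 unique molecular identifiers (UMIs, counted transcript molecules) in the mutant library and 115131011 in the heterozygous library, with medians of 14239.5 UMIs per cell in mutant and 20744 in heterozygous cells. The same 5 barcodes occurred in both libraries, and 2 of the mutant cells described here carried one of them.

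All 3 fine clusters were larger in the mutant library, by nearly the same factor. Together they held 19.4% of the mutant library (18.3% to 20.5%) against 2.05% of the heterozygous library (1.69% to 2.48%), which is a ratio of 9.43 with bounds of 7.40 and 12.1 taken from opposite ends of the intervals. They carried 18.4% of the UMIs of the mutant library and 1.45% of those of the heterozygous library. Mutant shares that exceeded the heterozygous ones by 2-fold or more, with intervals apart, were found in 9 of all 15 fine clusters, or 60.0%, so that passing this mark is the common case and not a property of these 3.

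Fine cluster 4 was the largest of them, with 437 mutant cells or 8.30% of that library (7.57% to 9.08%) and 46 heterozygous cells or 0.883% (0.647% to 1.18%). Fine cluster 6 held 295 mutant cells, 5.61% (5.00% to 6.26%), and 29 heterozygous cells, 0.557% (0.373% to 0.799%). Fine cluster 7 held 288 mutant cells, 5.47% (4.87% to 6.12%), and 32 heterozygous cells, 0.615% (0.421% to 0.866%). The ratios of mutant to heterozygous share were 9.40 in fine cluster 4, 10.1 in fine cluster 6 and 8.91 in fine cluster 7, each inside the bounds of the others. Mutant cells made up 90.5% of fine cluster 4, 91.0% of fine cluster 6 and 90.0% of fine cluster 7.

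The division of cells among the 3 clusters was close to the same in both libraries. Fine cluster 4 took 42.8% of these cells in the mutant library (39.8% to 45.9%) and 43.0% in the heterozygous library (33.5% to 52.9%). Fine cluster 6 took 28.9% (26.2% to 31.8%) of the mutant and 27.1% (19.0% to 36.6%) of the heterozygous cells, and fine cluster 7 took 28.2% (25.5% to 31.1%) of the mutant and 29.9% (21.4% to 39.5%) of the heterozygous cells. Summed over the 3 clusters and halved, the differences in these shares came to 1.82 percentage points. The 107 heterozygous cells leave room for shifts of several percentage points, and among cells with at least 14239.5 UMIs the figure was 12.4 percentage points.

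Within coarse cluster 3 the 3 clusters together were a smaller part of the mutant cells, 70.5% (68.1% to 72.8%), than of the heterozygous cells, 87.7% (80.5% to 93.0%). Taken singly, each of the 3 had overlapping intervals between the libraries. The remainder was fine clusters 8 and 9. Their ratios of mutant to heterozygous share of the library were 43.5 (bounds 17.7 and 133) in fine cluster 8 and 17.9 (8.07 and 45.6) in fine cluster 9. The lower bound of fine cluster 8 lay above the upper bounds of fine clusters 4, 6 and 7, of which the highest was 16.8, whereas the bounds of fine cluster 9 overlapped with theirs.

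A share depends on what else a library holds. Among cells outside coarse cluster 1, the largest heterozygous cluster, the 3 together held 19.9% of the mutant cells (18.9% to 21.1%) against 4.98% of the heterozygous cells (4.10% to 5.99%), and the ratio was 4.0. With coarse cluster 4 also left out of the total, they held 20.0% of the mutant cells (18.9% to 21.2%) against 9.55% of the heterozygous cells (7.90% to 11.4%), and the ratio was 2.10. The excess in the mutant library was thus smaller by this count, and the intervals still lay apart.

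**Figure D1:**
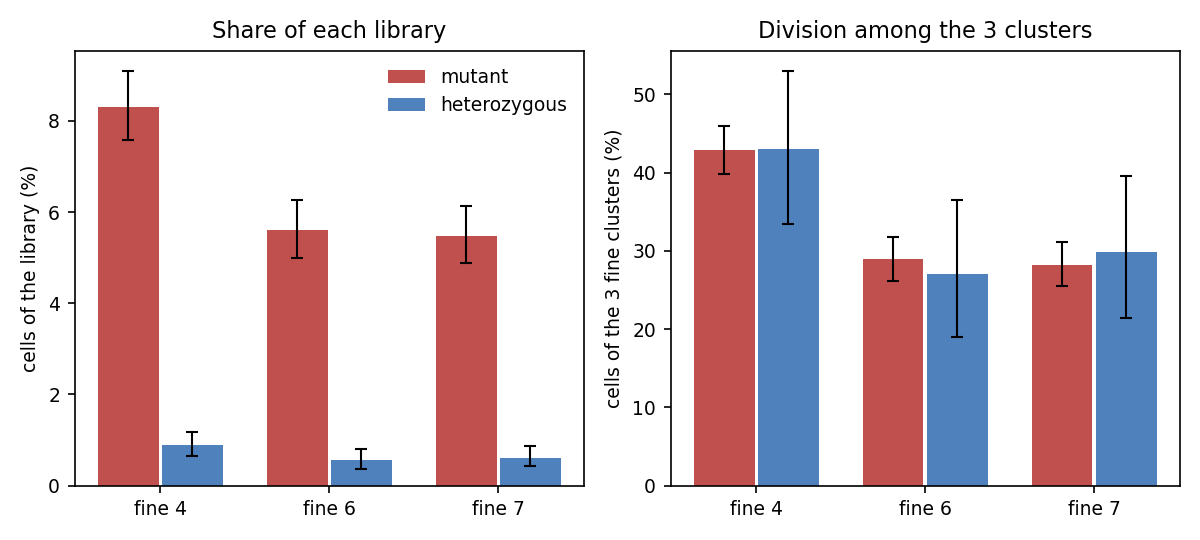
Percent of each library's cells in fine clusters 4, 6 and 7 (left) and percent of the cells of these 3 clusters in each of them (right), mutant in red and heterozygous in blue; bars start at 0 and whiskers are exact 95% binomial intervals over cells. Mutant bars on the left stand at 8.30%, 5.61% and 5.47% against 0.883%, 0.557% and 0.615% for heterozygous cells, while on the right the intervals of the libraries overlap in each cluster.

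Fine cluster 7 had more RNA captured per cell than fine clusters 4 and 6. Its median was 19432 UMIs (18153 to 20369) in mutant cells and 21296 (17246 to 23243) in heterozygous cells. Fine cluster 4 had medians of 12692 UMIs (12421 to 13055) in mutant and 14471.5 (12613 to 15555) in heterozygous cells. Fine cluster 6 had 13748 (13374 to 13989) in mutant and 13495 (12768 to 14919) in heterozygous cells. In the mutant library fine cluster 7 had the highest median of the 12 fine clusters with at least 20 cells there, and in the heterozygous library it was the third of 12. Fine cluster 9 of the same coarse cluster was of like depth in the mutant library, with 17746 UMIs (16332 to 18360) and an interval that overlapped with that of fine cluster 7.

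The distributions overlapped. A mutant cell of fine cluster 7 had more UMIs than a mutant cell of fine cluster 4 in 81.4% of all pairs of such cells, and more than a mutant cell of fine cluster 6 in 78.4%. Among heterozygous cells the same shares were 81.6% and 85.1%. A total of 20000 UMIs or more was reached by 134 of 288 mutant and 18 of 32 heterozygous cells of fine cluster 7. In fine cluster 4 it was reached by 14 of 437 mutant and 2 of 46 heterozygous cells, and in fine cluster 6 by 14 of 295 mutant and 0 of 29 heterozygous cells, where a count of 0 allows a share of up to 10.3%. Heterozygous cells of all clusters had a median of 20744 UMIs, so such totals were common there and not particular to fine cluster 7. For all mutant cells the median was lower, at 14239.5 UMIs. Shares of all cells at 20000 UMIs or more were not computed.

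Genes per cell were also highest in fine cluster 7, but fine cluster 6 did not exceed fine cluster 4. Fine cluster 7 had a median of 3570.5 genes (3482 to 3627) in mutant and 3564.5 (3363 to 3751) in heterozygous cells. Mutant cells of fine cluster 9 had 3630 (3506 to 3769), the most of the 12 fine clusters, with overlapping intervals. Fine cluster 4 had 2814 (2771 to 2862) in mutant and 2992 (2766 to 3136) in heterozygous cells. In fine cluster 6 the medians were 2776 (2733 to 2830) in mutant and 2713 (2577 to 2869) in heterozygous cells, the fewest of the 12 fine clusters compared in either library.

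Most of the excess of genes in fine cluster 7 went with its depth. Among mutant cells with 13000 to 15000 UMIs, 22 cells of fine cluster 7 had a median of 3044 genes (2957 to 3204) and 96 cells of fine cluster 4 had 2975.5 (2912 to 3015), with overlapping intervals. In the same window 104 cells of fine cluster 6 had 2816 genes (2778 to 2848), and this interval lay below both others. Averaged over 4 bins of UMIs with equal weight, mutant cells of fine cluster 7 had 115.75 genes more than those of fine cluster 6, against 794.5 before matching. Fine cluster 6 thus spread its UMIs over fewer genes at like depth.

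The genotypes did not separate in depth within any of the clusters. The mutant median of UMIs was 0.877 times the heterozygous one in fine cluster 4, 1.02 times in fine cluster 6 and 0.912 times in fine cluster 7. For genes the same ratios were 0.941, 1.02 and 1.0. All 6 pairs of intervals overlapped, and the bounds of the difference in UMIs ran as far as -5090 to 3123 in fine cluster 7, so that modest differences are not detectable with 32 heterozygous cells.

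Unspliced transcripts, which are mostly newly made RNA that still holds introns, made up a similar part of the UMIs in the 3 clusters. The mutant medians were 7.98% in fine cluster 4 (7.82% to 8.16%), 7.28% in fine cluster 6 (7.11% to 7.49%) and 7.92% in fine cluster 7 (7.49% to 8.21%). Fine cluster 6 was below fine cluster 4 by 0.70 percentage points with intervals apart, and the intervals of fine clusters 6 and 7 touched. Among mutant cells with 12000 to 18000 UMIs, fine cluster 7 had 8.20% (7.81% to 8.97%). Fine cluster 6 had 7.26% (7.09% to 7.53%) in that window, with intervals apart. Between 13000 and 15000 UMIs the intervals of this pair still touched. In the heterozygous library the lowest was fine cluster 7, with 7.28% (6.70% to 7.73%), followed by fine cluster 6 with 7.90% (7.21% to 8.65%) and fine cluster 4 with 8.15% (7.77% to 9.36%).

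The order of the cluster medians in unspliced share therefore differed between the libraries, but the intervals of fine clusters 6 and 7 overlapped in both. The mutant minus heterozygous difference of medians was -0.172 percentage points in fine cluster 4, -0.616 in fine cluster 6 and 0.641 in fine cluster 7. Genotype intervals overlapped in all 3, and whether the genotype difference differs between clusters was not tested. In the mutant library all 3 clusters lay below fine cluster 9 of the same coarse cluster, whose median was 9.85%, with intervals apart. Fine cluster 8 had 7.82%, which overlapped with fine clusters 4 and 7.

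Mitochondrial transcripts made up more of the UMIs in mutant cells of each cluster. In fine cluster 7 the medians were 1.58% (1.49% to 1.65%) in mutant and 1.15% (0.991% to 1.25%) in heterozygous cells, and a mutant cell was the higher one in 78.0% of pairs. Fine cluster 4 had 1.66% (1.59% to 1.72%) in mutant and 1.40% (1.22% to 1.78%) in heterozygous cells. In fine cluster 6 these values were 1.73% (1.64% to 1.79%) in mutant and 1.46% (1.08% to 1.82%) in heterozygous cells. The intervals lay apart in fine cluster 7, and not in the other two. The whole libraries differed in the same direction, with medians of 1.73% in mutant and 0.994% in heterozygous cells, and the part of the library in the cluster differences was not tested. Between the clusters of the mutant library the intervals overlapped for every pair.

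**Figure D2:**
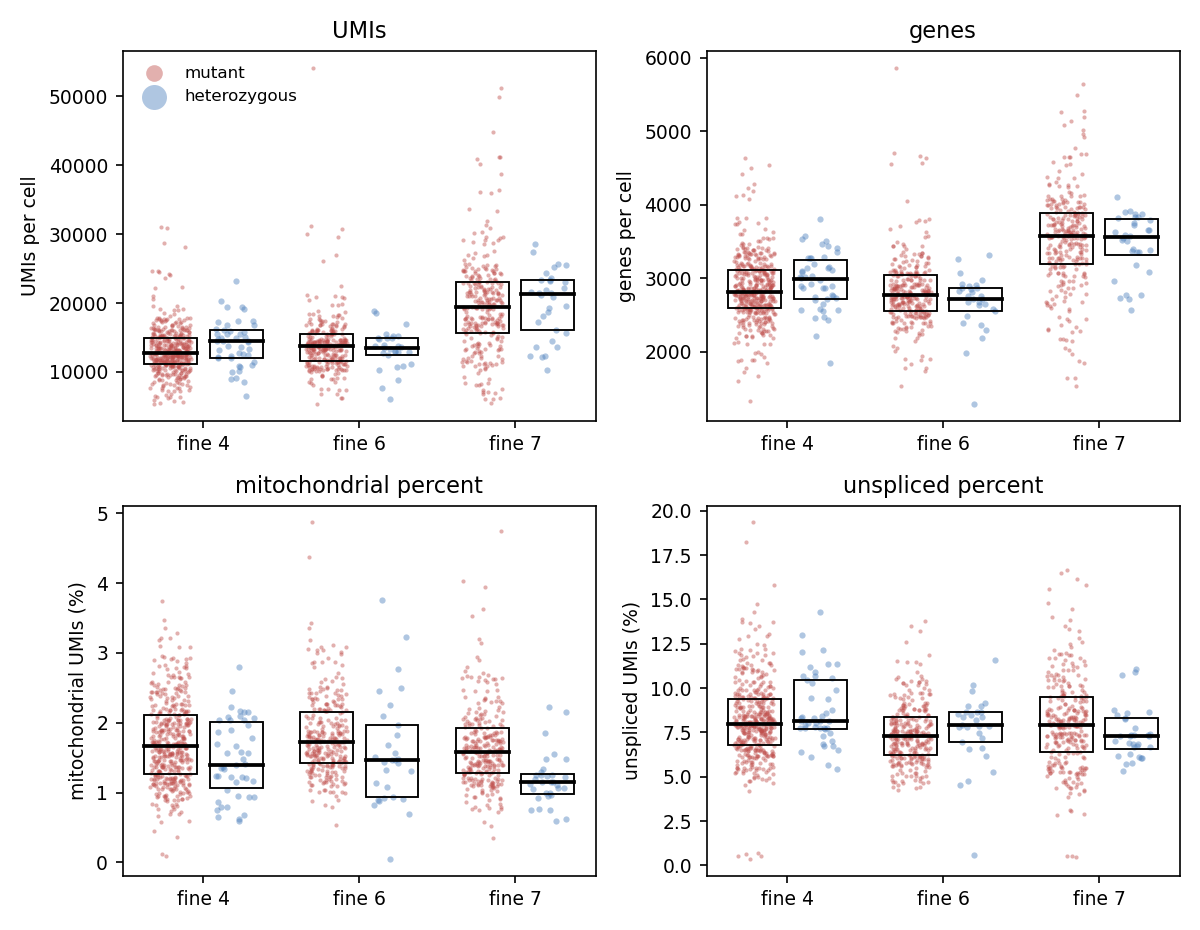
UMIs per cell, genes per cell, percent of mitochondrial UMIs and percent of unspliced UMIs in fine clusters 4, 6 and 7, 1 point per cell, mutant in red and heterozygous in blue; boxes span the quartiles and thick lines are medians. Fine cluster 7 lies highest in UMIs and genes in both libraries, with medians of 3570.5 genes in mutant and 3564.5 in heterozygous cells.

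Fine cluster 6 lay earlier in velocity pseudotime than the other two, in both libraries. Its median was 0.446 (0.444 to 0.447) in mutant and 0.442 (0.440 to 0.445) in heterozygous cells, on a scale of 0 to 1 over all cells of the series. Fine cluster 4 had 0.460 (0.460 to 0.461) in mutant and 0.458 (0.455 to 0.461) in heterozygous cells. For fine cluster 7 the medians were 0.459 (0.457 to 0.461) in mutant and 0.455 (0.452 to 0.459) in heterozygous cells, and its intervals overlapped with those of fine cluster 4 in each library.

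The gap was small on the scale of the series and clear within the 3 clusters. A cell of fine cluster 6 was later than a cell of fine cluster 4 in 9.46% of mutant pairs and 14.0% of heterozygous pairs. A cell of fine cluster 7 was later than one of fine cluster 6 in 86.5% of mutant pairs and 90.6% of heterozygous pairs. A cell of fine cluster 7 was later than one of fine cluster 4 in 46.3% of mutant pairs and 41.0% of heterozygous pairs, which is close to an even split. In the mutant library all 3 clusters came before fine clusters 8 and 9, whose medians were 0.482 and 0.475, with intervals apart. The root cell score did not give the same order for fine cluster 9. Its mutant median was 0.756, the highest of the 12 fine clusters, against 0.0452 to 0.0570 in the 3 clusters. In fine cluster 8 it was lower than in them, at 0.0260.

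Mutant cells lay slightly later than heterozygous cells in each of the 3 clusters. The difference between medians was 0.00262 in fine cluster 4, 0.00324 in fine cluster 6 and 0.00432 in fine cluster 7, with overlapping intervals in all of them. A mutant cell was the later one in 60.1%, 64.7% and 65.7% of pairs in these clusters. With the cells of the 3 clusters joined, the medians were 0.457 (0.456 to 0.458) in mutant and 0.453 (0.450 to 0.455) in heterozygous cells, with intervals apart.

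Among the 3 clusters, self-transition was highest in fine cluster 4. Its medians were 0.325 (0.318 to 0.331) in mutant and 0.277 (0.256 to 0.316) in heterozygous cells. Fine cluster 6 had 0.178 (0.165 to 0.190) in mutant and 0.161 (0.128 to 0.180) in heterozygous cells. Fine cluster 7 had 0.223 (0.197 to 0.249) in mutant and 0.174 (0.125 to 0.234) in heterozygous cells, above fine cluster 6 with intervals apart in the mutant library and overlapping in the heterozygous one. A cell of fine cluster 6 was above a cell of fine cluster 4 in 10.2% of mutant pairs and 12.2% of heterozygous pairs. A self-transition of 0.3 or more was found in 65.9% of the mutant cells of fine cluster 4 (61.2% to 70.3%) and in 43.5% of its heterozygous cells (28.9% to 58.9%).

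High self-transition was not particular to fine cluster 4, which ranked 9 of 12 fine clusters in each library, and the median was higher in the rest of coarse cluster 3. The mutant medians were 0.389 (0.377 to 0.401) in fine cluster 8 and 0.353 (0.342 to 0.365) in fine cluster 9, with intervals apart from that of fine cluster 4. Values of 0.3 or more were found in 92.0% of mutant cells of fine cluster 8 and in 87.7% of those of fine cluster 9.

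Within coarse cluster 3 low mutant values lay in fine clusters 6 and 7. Low values were not particular to them in the mutant library. Fine cluster 2, outside coarse cluster 3, had the lowest mutant median of the 12 fine clusters, 0.137. In the heterozygous library the lowest was that of fine cluster 6. Shares of the whole libraries at 0.1 or less were not computed. Values of 0.1 or less were found in 43 of 295 mutant and 6 of 29 heterozygous cells of fine cluster 6, and in 49 of 288 mutant and 8 of 32 heterozygous cells of fine cluster 7. No mutant cell of fine clusters 4, 8 or 9 had such a value, where in fine cluster 4 a count of 0 in 437 cells allows a share of up to 0.686%. In the heterozygous library 4 of the 46 cells of fine cluster 4 did, and all 4 were listed at exactly 0. These 4 cells lay at pseudotimes of 0.428 to 0.439, below the heterozygous median of the cluster, with root cell scores of 0.819 to 1. A self-transition of 0 was listed for 210 of the 10469 cells of the series. These were 66 of 5207 heterozygous cells, 1.27%, against 8.70% of the heterozygous cells of fine cluster 4 (2.42% to 20.8%). In the mutant library they were 144 of 5262 cells, 2.74%, and 0 of the 1020 cells of the 3 clusters.

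Self-transition was higher at later pseudotime inside fine clusters 6 and 7. Ordered by pseudotime and cut into 5 equal groups, the mutant cells of fine cluster 6 had median self-transitions of 0.0948, 0.148, 0.179, 0.208 and 0.307. Those of fine cluster 7 had 0.107, 0.150, 0.222, 0.291 and 0.317, while those of fine cluster 4 moved between 0.299 and 0.339 without a steady order. Spearman's rho over mutant cells was 0.809 in fine cluster 6 (295 cells), 0.827 in fine cluster 7 (288 cells) and 0.212 in fine cluster 4 (437 cells).

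For comparison, rho in the other 9 fine clusters with at least 20 mutant cells ran from -0.261 to 0.657. In heterozygous cells rho was 0.590 in fine cluster 6 (29 cells), 0.775 in fine cluster 7 (32 cells) and 0.645 in fine cluster 4 (46 cells). The other 9 fine clusters with at least 20 heterozygous cells ran from -0.637 to 0.703, a range that holds the values of fine clusters 4 and 6. A single heterozygous cell of fine cluster 6, at a pseudotime of 0.335, lowered its value, and without that cell rho was 0.737. The heterozygous value of fine cluster 4 includes the 4 cells listed at a self-transition of 0. Those cells lay at low pseudotimes of 0.428 to 0.439, and rho without them was not computed. These correlations are descriptions across cells of 1 library, and both scores come from the same velocity estimate. UMIs did not follow the same course, with a rho against self-transition of -0.0414 in fine cluster 6 and -0.0100 in fine cluster 7, but of -0.405 in fine cluster 4 (mutant cells).

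**Figure D3:**
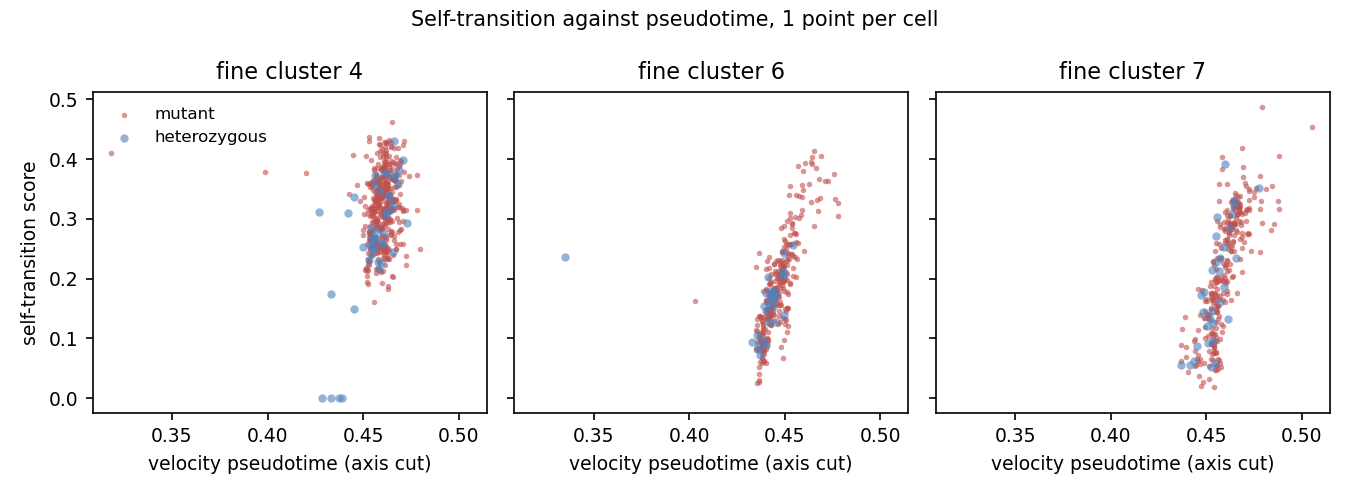
Self-transition score against velocity pseudotime in fine clusters 4, 6 and 7, 1 point per cell, mutant in red and heterozygous in blue; the pseudotime axis does not start at 0. Cells of fine clusters 6 and 7 form slopes with Spearman's rho of 0.809 and 0.827 in the mutant library, fine cluster 4 forms an upright cloud, and 4 heterozygous cells of fine cluster 4 lie at 0.

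Among the 3 clusters, most high root cell scores were in fine cluster 4. A score of 0.5 or more was given to 62 mutant and 17 heterozygous cells of the 3 clusters. In the mutant library that is 6.08% of the cells of the 3 clusters (4.69% to 7.72%), near the 5.74% of all its cells, and in the heterozygous library 15.9% (9.54% to 24.2%), against 6.15% of all its cells. Of those 79 cells, 59 mutant and 16 heterozygous cells were in fine cluster 4. They made up 13.5% of its mutant cells (10.4% to 17.1%) and 34.8% of its heterozygous cells (21.4% to 50.2%), with intervals apart. The 16 heterozygous cells include the 4 listed at a self-transition of 0, whose root cell scores were 0.819 to 1. The share without those 4 was not computed, so whether the intervals would stay apart is not known. At a score of 0.9 or more the counts were 10 of 437 mutant cells, 2.29% (1.10% to 4.17%), and 9 of 46 heterozygous cells, 19.6% (9.36% to 33.9%). Over the whole libraries that score was reached by 1.60% of mutant and 3.32% of heterozygous cells.

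The scores of fine cluster 4 were strongly skewed. The median was 0.0570 (0.0507 to 0.0680) in mutant cells with an upper quartile of 0.261, and 0.142 (0.0522 to 0.626) in heterozygous cells with an upper quartile of 0.850. High and low scorers, split at 0.5, had overlapping intervals of depth. Across all cells of the cluster, however, higher scores went with fewer UMIs. Spearman's rho was -0.200 over 437 mutant cells and -0.329 over 46 heterozygous cells, within the range of the other 9 fine clusters. Mutant cells with a score of 0.5 or more had a median of 12572 UMIs (10690 to 13653) and the other 378 had 12710 (12428 to 13058). In the heterozygous library the medians were 13057.5 (10700 to 15830) in the 16 high scorers and 14858.5 (13213 to 15961) in the other 30.

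Fine clusters 6 and 7 had few such cells. A score of 0.5 or more was found in 1 of 295 mutant and 1 of 29 heterozygous cells of fine cluster 6, and in 2 of 288 mutant and 0 of 32 heterozygous cells of fine cluster 7, where a count of 0 allows up to 9.38%. The medians of fine cluster 6 were 0.0452 (0.0427 to 0.0477) in mutant and 0.0430 (0.0360 to 0.0525) in heterozygous cells. Those of fine cluster 7 were 0.0484 (0.0415 to 0.0534) in mutant and 0.0368 (0.0133 to 0.0679) in heterozygous cells. The neighbouring fine cluster 9 had a score of 0.5 or more in 79.8% of its mutant cells (72.8% to 85.6%), far above the 13.5% of fine cluster 4. All 9 heterozygous cells of fine cluster 9 reached 0.5 (66.4% to 100%), with overlapping intervals. A score of 0.9 or more was reached there by 41 of 163 mutant cells, 25.2% (18.7% to 32.5%), and 8 of 9 heterozygous cells, 88.9% (51.8% to 99.7%). Those intervals lay apart, so a higher heterozygous share was not particular to fine cluster 4.

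End point scores were close to 0 throughout. No cell of the 3 clusters reached 0.01, where a count of 0 allows shares of up to 0.294% of the mutant and 2.80% of the heterozygous cells, and the highest value was 0.00397. Fine cluster 4 had the lowest median of the 12 fine clusters compared in each library, 2.92e-05 (2.52e-05 to 3.37e-05) in mutant and 1.17e-05 (6.67e-06 to 2.21e-05) in heterozygous cells, and fine cluster 6 was the next lowest in both. Fine cluster 6 had 3.49e-05 (3.07e-05 to 3.85e-05) in mutant and 2.02e-05 (1.50e-05 to 2.66e-05) in heterozygous cells. Fine cluster 7 had 5.74e-05 (4.92e-05 to 6.93e-05) in mutant and 3.74e-05 (2.95e-05 to 5.21e-05) in heterozygous cells. The mutant cells of fine cluster 8 had a median of 0.00197.

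Mutant medians of the end point score were higher in all 3 clusters, with intervals apart in fine clusters 4 and 6. They also lay apart, in the same direction, in fine cluster 9 with its 9 heterozygous cells. Means gave the opposite direction in fine cluster 4, with a mutant minus heterozygous difference of -0.000183, and without the 4 heterozygous cells listed at a self-transition of 0, whose end point scores were 0.00148 to 0.00397, the difference of means was 1.95e-05. The medians describe an order among very small scores.

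**Figure D4:**
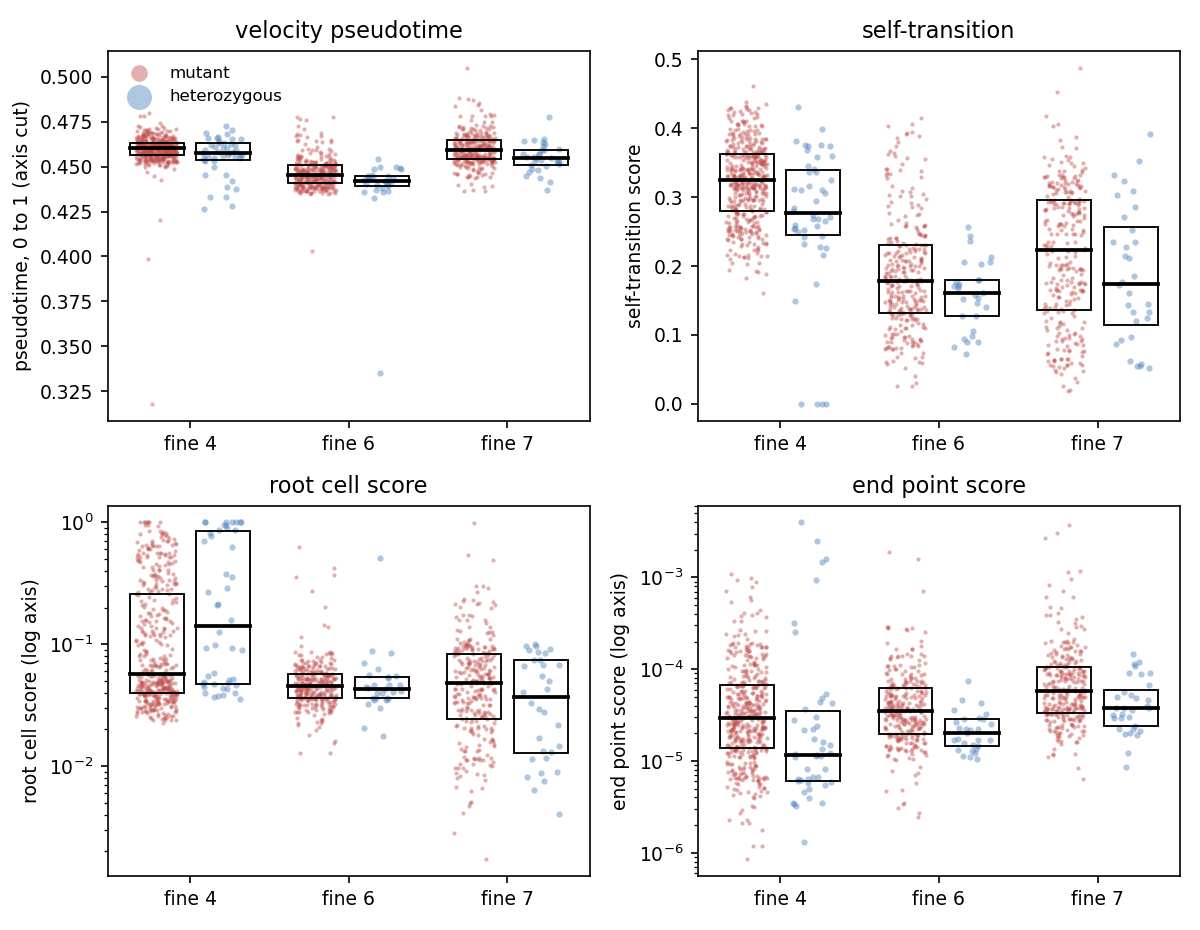
Velocity pseudotime, self-transition, root cell score and end point score in fine clusters 4, 6 and 7, 1 point per cell, mutant in red and heterozygous in blue; boxes span the quartiles, thick lines are medians, root and end point axes are logarithmic, the pseudotime axis does not start at 0, and 1 cell with an end point score of 0 is not drawn. Fine cluster 6 lies lowest in pseudotime, fine cluster 4 highest of the 3 in self-transition, and root cell scores near 1 appear mostly in fine cluster 4.

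Between genotypes, the median was higher in mutant cells of all 3 clusters for 4 of the 8 measures, namely mitochondrial percent, pseudotime, end point score and self-transition, and lower in all 3 for 0 of them. The intervals lay apart in 4 of the 24 differences. These were the mitochondrial percent of fine cluster 7, the end point scores of fine clusters 4 and 6, and the self-transition of fine cluster 4, where the difference was 0.0475. For that score the genotype differences were 0.0172 in fine cluster 6 and 0.0484 in fine cluster 7, with overlapping intervals. Intervals apart were not counted over the other fine clusters, and higher mutant scores were not particular to these 3. Fine cluster 9 (9 heterozygous cells) had end point scores of 6.49e-05 (5.70e-05 to 7.24e-05) in mutant and 3.31e-05 (2.30e-05 to 3.82e-05) in heterozygous cells. Its self-transition was 0.353 (0.342 to 0.365) and 0.319 (0.305 to 0.339), with intervals apart in both scores. In fine cluster 8 (6 heterozygous cells) both overlapped. In self-transition, fine clusters 6 and 4 differed by -0.147 in mutant and -0.116 in heterozygous cells, more than the genotypes did in any of the 3 clusters. Fine clusters 7 and 6 differed by 0.0449 in mutant and 0.0137 in heterozygous cells, less than the genotypes did in fine clusters 4 and 7. Among cells with 12000 to 18000 UMIs, only the end point score of fine cluster 6 kept genotype intervals apart, of the 4 differences in fine clusters 4, 6 and 7. They were narrowly apart, at 2.87e-05 to 3.74e-05 in mutant and 1.46e-05 to 2.84e-05 in heterozygous cells. Between 13000 and 15000 UMIs (11 heterozygous cells) they overlapped. In the wider window the intervals overlapped for mitochondrial percent in fine cluster 7 (9 heterozygous cells). They also overlapped for both scores of fine cluster 4 (30 heterozygous cells). Mutant medians stayed higher, and fewer cells widen the intervals.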

How the data were processed

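Cells came from 1 mutant and 1 heterozygous library. STARsolo, Scanpy and the build danRer11 are named in the submitters' processing notes. Not given in the sources used here are versions, annotation, cell filters, doublet treatment, clustering settings and the velocity tool. The authors deposited, per the file headers, the natural log of total UMIs plus 1, the percent of mitochondrial UMIs, genes per cell, cluster numbers, spliced and unspliced sizes (whole numbers, read here as UMIs) and the velocity scores. UMIs were recovered by inverting the log (within 0.0614 of whole numbers). The unspliced percent was unspliced over spliced plus unspliced UMIs, and their sum came to 100.4% of a cell's total at the median of the cells described here. Both deposited tables held identical values in the 6 measures compared for all 10469 cells.

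Shares have exact (Clopper-Pearson) intervals and medians exact order-statistic intervals, with medians ranked among fine clusters of at least 20 cells. Python 3.11.15, numpy 2.4.6, pandas 2.3.3 and scipy 1.17.1 were used, and the intervals were tested on simulated data. The named items were fine clusters 4, 6 and 7 with all measures, and fine clusters 8 and 9 beside them. The clusters were chosen with earlier results of these data known. Alternatives were UMI, gene and mitochondrial limits, removal of the top 5% of cells by UMIs (no doublet caller was run), other denominators, means, matched UMIs and another unspliced denominator. Depth windows, score limits, and leaving out cells with few unspliced UMIs, a self-transition of 0 or shared barcodes were chosen after seeing the data. No gene expression was analysed here.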

Additional observations from a re-analysis of the deposited data

How the results depend on the processing

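With 1 library per genotype no library could be left out and no paired analysis was possible. The second deposited table gave identical shares. Over all alternatives 265 values fell inside the interval used for the reported value, 33 moved outside it and 7 reversed. A change of sign was not counted as reversed where that interval held 0. The mutant minus heterozygous UMI median of fine cluster 4, for example, went from -1779.5 to 77 under the UMI minimum and counted as inside. The division among the 3 clusters had no exact interval, and a range of 0 to 11.5 percentage points stood in. The total also holds settings that could not change a value, such as leaving out cells of self-transition 0 in the mutant library. Moved values are given below, and where no construction is named the cause was not tested. Ratios of mutant to heterozygous share fell by the change of denominator. Outside coarse cluster 1 they were 4.0 for the 3 clusters together, 3.99 for fine cluster 4, 4.27 for fine cluster 6 and 3.78 for fine cluster 7. Outside coarse clusters 1 and 4 they were 2.10, 2.09, 2.24 and 1.98 in the same order. Within coarse cluster 3 they reversed to 0.804, 0.801, 0.858 and 0.759, with intervals apart only for the 3 together. The gene minimum of 2967 gave 12.9 for the 3 together and 32.6 for fine cluster 6, which rests on 4 heterozygous cells. The mitochondrial maximum of 1.39% gave 12.9 for the 3 together and 16.3 for fine cluster 4, and the UMI minimum gave 17.4 for fine cluster 6. The division among the 3 clusters differed by 12.4 percentage points under the UMI minimum, against 1.82 as reported. The difference was 11.1 under the gene minimum, 11.3 under the mitochondrial maximum and 2.92 without the 5% of cells with the most UMIs. These counted as inside the range of 0 to 11.5.

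Between clusters of the mutant library, the UMI minimum cut the difference of fine cluster 7 minus 4 to 5034 UMIs, that of 7 minus 6 to 602.5 genes and the self-transition of 4 minus 6 to 0.114, by its own construction for UMIs. Matched UMIs gave 115.75 genes, a self-transition difference of 0.126 and a root cell score difference of 0.0287 for 4 minus 6; 1 of the 5 bins held 19 cells of fine cluster 7 and was not used, and UMIs themselves were not matched. Means gave a root cell score difference of 0.134 for 4 minus 6 and an end point difference of 6.36e-05 for 7 minus 4. No mutant cell of the 3 clusters had a self-transition of 0, so that leaving such cells out could not change these means. In the heterozygous library, end point means of 7 minus 4 reversed to -2.02e-04, and to -3.88e-07 without the cells of self-transition 0. There the mitochondrial maximum turned the mitochondrial difference of 6 minus 7 to -0.173 percentage points in 12 and 26 cells. Within clusters, mutant minus heterozygous means of the end point score were -1.83e-04 in fine cluster 4 (reversed), 4.08e-05 in fine cluster 6 and 8.35e-05 in fine cluster 7. Pseudotime in fine cluster 6 differed by 0.00765 with means and 0.00721 with the UMI minimum, and mitochondrial percent in fine cluster 7 by 0.0688 points under its own maximum. The share of fine cluster 4 cells whose root cell score reached 0.5 differed by -21.3 percentage points and stayed between -22.3 and -16.3 over 6 added settings. None of these settings left out the heterozygous cells of self-transition 0. Counting error limits every heterozygous value, since the clusters held 46, 29 and 32 heterozygous cells.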

Other observations

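A small set of cells with almost no unspliced transcripts was spread over the 3 clusters. In 9 of the 1127 cells unspliced UMIs made up 0.371% to 0.675%, and the next lowest cell stood at 2.86%. Of these, 5 were mutant cells of fine cluster 4, 3 were mutant cells of fine cluster 7 and 1 was a heterozygous cell of fine cluster 6. The 5 cells of fine cluster 4 had 5349 to 8574 UMIs and 1328 to 1972 genes, and their root cell scores were 0.649 to 1. The 3 cells of fine cluster 7 had 6098 to 9037 UMIs and root cell scores of 0.0256 to 0.0604. The heterozygous cell had 6020 UMIs, 1291 genes, 0.0498% mitochondrial UMIs and a root cell score of 0.513. The lowest pseudotimes of fine clusters 4 and 6, 0.318 and 0.335, belonged to cells of this set. Over the whole series 116 of 10469 cells had at most 2% unspliced UMIs.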
